A study of Mus musculus with 16 samples.

Results

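The 39 protein-coding genes of the 4 Hox clusters were examined, out of 21755 protein-coding genes on the autosomes and the X chromosome. They were taken by symbol alone, as every gene named Hoxa, Hoxb, Hoxc or Hoxd with a number in the GENCODE vM21 annotation of mm10, so no methylation value decided which genes were members. The Hoxa cluster held 11 genes over 105 kb (chr6:52155590-52260880) and the Hoxb cluster held 10 genes over 174 kb (chr11:96194316-96368256). The Hoxc cluster held 9 genes over 116 kb (chr15:102921103-103036852) and the Hoxd cluster 9 genes over 96.8 kb (chr2:74668310-74765142).

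DNA methylation had been measured by whole genome bisulphite sequencing in 16 libraries from the spleens of C57BL/6J animals 6 to 8 weeks old, with no treatment or mutation named in the labels. There were 8 libraries of CD43- B cells, a fraction of resting B cells, and 8 of CD4+CD62L+ T cells, a fraction of naive helper T cells, both isolated with magnetic beads from spleens of pooled mice. Each cell type was represented by 4 female and 4 male libraries, and each sex by 2 conventional bisulphite (BS) and 2 oxidative bisulphite (oxBS) libraries. BS reads 5-methylcytosine and 5-hydroxymethylcytosine alike, whereas the oxidation step of oxBS removes the second from the signal. Per the labels, part of a ligated sample was oxidised, so a BS and an oxBS library may hold the same DNA, but the labels tie no libraries together and name no mouse. The 8 libraries of a cell type may then stand for as few as 4 DNA samples, so that SDs and p-values over 8 libraries measure a spread between libraries that may in part be technical, and may be too small. A methylation level is given here as the percentage of methylated calls among all calls over the CpGs of a region, an average over all cells of a library, so a small change in every cell and a large change in a few cells cannot be told apart.

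Libraries held 123693203 to 171130063 calls in B cells and 154857425 to 170135949 in T cells, or 5.78 to 7.99 and 7.22 to 7.94 calls per CpG. The genome-wide level was 79.5 to 81.5% in B cells and 78.5 to 79.7% in T cells. A region was called between groups where its adjusted p, from a quasi-binomial model of the calls with terms for cell type, sex and assay, was under 0.05 and the pooled levels differed by at least 10 percentage points. Differences are given as B minus T cells unless stated. The labelled cell types were checked at the promoters of marker genes. Of 8 B cell markers 7 were called lower in B cells, with Ms4a1, a B cell surface protein, at 13.8% against 94.2% in T cells, and of 10 T cell markers 8 were called lower in T cells, with Cd3e, a subunit of the T cell receptor complex, at 86.5% in B cells and 2.73% in T cells. Among markers of other cells, 4 of 5 promoters of CD8 T or NK cell genes were called lower in T cells (summed level 75.3 to 80.3% in B and 45.4 to 54.7% in T libraries). For myeloid genes the summed level was 51.7 to 60.0% in B and 50.2 to 56.6% in T libraries, with none of 6 promoters called (3 at an unadjusted p under 0.05, none by edgeR). Of these 6, 1 passed the adjusted p with a difference under 10 points, higher in T cells. For erythroid genes it was 24.4 to 36.4% and 27.8 to 32.7%, with none of 4 called (1 at an unadjusted p under 0.05, none by edgeR). The part of such cells in the results below was not tested.

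Hox genes encode homeodomain transcription factors that lay out the body axis of the embryo, and their order along each cluster follows the order of the body regions in which they act. Outside their domains they are held silent by Polycomb complexes over CpG-rich DNA that usually carries little methylation. In the blood system the Hoxa genes around Hoxa9 are known for their activity in stem and progenitor cells, where they are maintained by the trithorax-type methyltransferase Kmt2a, and for their decline as lymphocytes mature.

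The sequences just upstream of 5 Hoxa genes are given first, because they include low, intermediate and high levels. They are reference bases from RefSeq (GRCm38.p6, minus strand, written 5′ to 3′, annotated exons left out), and capitals mark CpG dinucleotides. The stretch before Hoxa5 (chr6:52204588-52204837) was highly methylated in both cell types, and that before Hoxa6 (chr6:52208723-52208922) was nearly unmethylated. Those before the RefSeq starts of Hoxa7 (chr6:52218712-52218823) and Hoxa9 (chr6:52227371-52227620) were CpG-poor and intermediate. The stretch before Hoxa13 (chr6:52260881-52261130), at the far end of the cluster, was CpG-rich and almost free of methylation.
Hoxa5: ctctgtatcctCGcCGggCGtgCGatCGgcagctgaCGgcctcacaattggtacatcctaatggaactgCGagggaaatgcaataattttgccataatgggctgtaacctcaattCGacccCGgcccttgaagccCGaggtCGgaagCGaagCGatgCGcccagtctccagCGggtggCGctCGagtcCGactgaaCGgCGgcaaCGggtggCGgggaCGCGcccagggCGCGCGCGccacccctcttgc
Hoxa6: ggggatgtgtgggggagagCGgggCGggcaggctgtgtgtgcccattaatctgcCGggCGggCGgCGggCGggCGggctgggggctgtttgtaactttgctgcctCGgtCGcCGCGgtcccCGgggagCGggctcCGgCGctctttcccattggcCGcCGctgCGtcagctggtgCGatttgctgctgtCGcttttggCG
Hoxa7: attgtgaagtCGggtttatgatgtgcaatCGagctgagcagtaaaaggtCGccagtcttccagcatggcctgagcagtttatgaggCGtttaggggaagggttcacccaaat
Hoxa9: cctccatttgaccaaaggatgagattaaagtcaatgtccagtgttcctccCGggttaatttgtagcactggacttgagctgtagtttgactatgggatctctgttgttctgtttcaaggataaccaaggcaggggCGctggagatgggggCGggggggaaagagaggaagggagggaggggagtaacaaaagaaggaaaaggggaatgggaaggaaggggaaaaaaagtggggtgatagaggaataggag
Hoxa13: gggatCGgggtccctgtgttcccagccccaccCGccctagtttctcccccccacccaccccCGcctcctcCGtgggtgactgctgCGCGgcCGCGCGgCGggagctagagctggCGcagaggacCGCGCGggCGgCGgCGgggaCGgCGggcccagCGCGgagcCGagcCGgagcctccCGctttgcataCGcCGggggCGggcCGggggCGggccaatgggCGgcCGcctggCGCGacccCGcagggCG

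Over the 28 CpGs of the Hoxa5 stretch the pooled level was 79.0% in B and 92.6% in T cells, and 26 of these CpGs were higher in T cells. In the Hoxa6 stretch, 22 CpGs stood at 1.02% and 4.54%, with 20 of them higher in T cells. The 4 CpGs before Hoxa7 stood at 32.4% in B cells, with libraries from 25.6 to 40.8%, and at 58.9% in T cells, with libraries from 51.9 to 68.1%, and all 4 were higher in T cells. Before Hoxa9 there were only 3 CpGs, at 20% of 105 calls in B and 42.8% of 152 calls in T cells, again all 3 higher in T cells. In the 35 CpGs before Hoxa13 at most 2.0% of the calls of any library were methylated. No test was run on these short stretches, and neighbouring CpGs on a read are not independent.

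The first question was how methylated Hox promoters, taken as 1 kb on each side of the start of the gene record, were in lymphocytes. Of 39 promoters 33 (84.6%) had a mean level of the 2 cell types of at most 20%, 3 lay in between, and 3 were at 80% or above. Over all 20905 promoters tested 55.5% were at most 20% and 24.1% at 80% or above. The median level of the Hox promoters was 7.33% in B and 7.61% in T cells, against 14.8% and 13.7% for all promoters. At the gene record starts, genes at the 5′ side of the clusters, with the high group numbers, were low: all 16 promoters of groups 9 to 13 were at most 20%, as were 12 of 15 from groups 4 to 8 and 5 of 8 from groups 1 to 3. At the starts of the principal transcripts in the APPRIS annotation the exception among groups 9 to 13 was Hoxa9, at 18.3% in B and 31.4% in T cells. The Hox promoters were CpG-rich, with a median of 88 CpGs per window against 65 for all promoters, and ranged from 20 to 194. Across the 39 windows the level was lower where the ratio of observed to expected CpGs was higher (Spearman rho -0.44, a description only, since neighbouring windows share DNA and libraries).

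The promoters that departed from this were few. Hoxa5, which patterns the cervical and thoracic skeleton and the lung, had the highest level of the Hoxa cluster at 88.2% in B and 95.3% in T cells. It holds 139 CpGs, and of 5326 promoters in the genome with at least 100 CpGs only 6 (0.113%) were at 80% or above. Among 15 Hox promoters of that density, Hoxa5 was the only such promoter. Hoxb3, a regulator of hindbrain segments, was at 93.6% in B and 93.0% in T cells but had 23 CpGs, and its libraries ran from 88.0 to 96.5% with a median of 94.3% in B and from 90.2 to 96.9% with a median of 92.7% in T cells, so that the groups overlapped. Hoxb2, another hindbrain regulator, was at 80.8% and 79.3% over 20 CpGs, and at 29.3% and 28.4% around its APPRIS start, 1106 bp away. Hoxc4 was the highest of its cluster at 58.7% and 55.3% over 23 CpGs, and at 5.29% and 7.27% around its APPRIS start. The other promoters between the limits were Hoxa6, described below, and Hoxa2, which specifies the second pharyngeal arch, at 33.0% and 34.0%. At gene record starts no promoter of the Hoxd cluster exceeded 20%, its highest being Hoxd12 at 11% and 12%. Around its APPRIS start, 10049 bp away, Hoxd4 was at 38.5% in B and 41.9% in T cells.

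At the low end stood Hoxa13, a gene of the limb tips and genital tubercle. In B cells its promoter ran from 1.48 to 5.07% with a median of 2.09%, and in T cells from 0.708 to 2.89% with a median of 2.01%. The groups overlapped, and the difference of 0.638 points had an adjusted p of 0.447. The lowest promoters of the other clusters were Hoxb9 (3.32% in B, 3.50% in T cells), Hoxc9 (5.03% and 5.05%) and Hoxd8 (4.24% and 4.06%), each with overlapping groups. Promoter windows of Hoxd3 and Hoxd4 are almost the same DNA, and those of Hoxc5 and Hoxc10 overlap in part, so these are not separate observations.

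**Figure D1:**
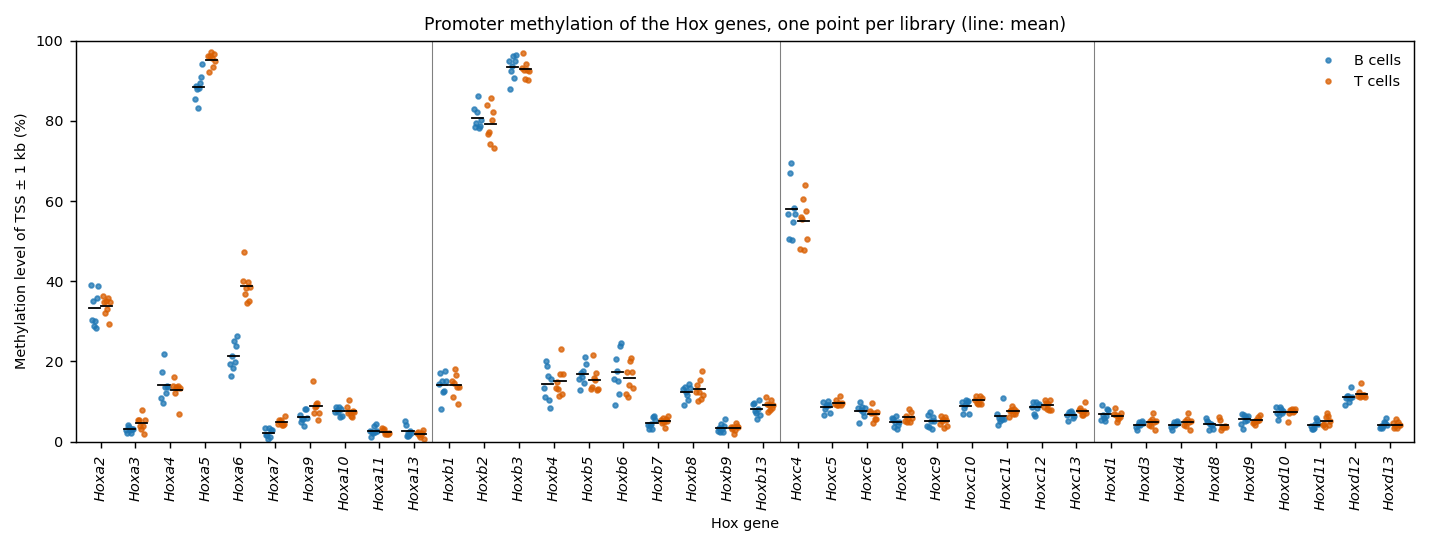
Promoter methylation level (%) of the Hox genes named on the axis, grouped by cluster, with a point for each of the 8 B cell and 8 T cell libraries. Most genes sit below 20%, Hoxa5, Hoxb2 and Hoxb3 sit near the top, and Hoxa6 shows its T cell libraries (34.7 to 47.2%) above its B cell libraries (16.3 to 26.3%).

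**Figure D2:**
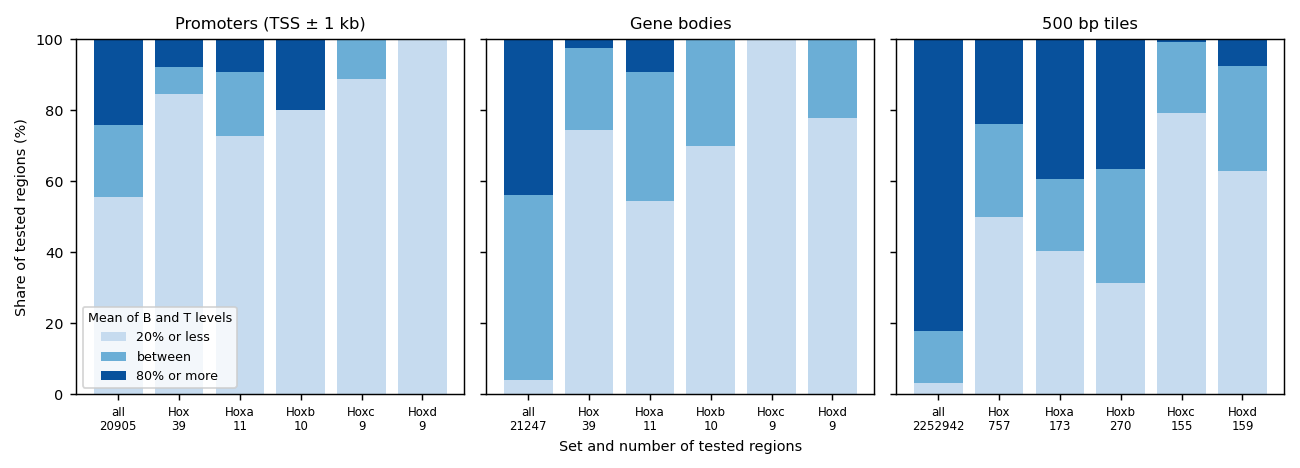
Stacked bars of the percentage of promoters, gene bodies and 500 bp tiles with a mean level of at most 20%, in between, or at 80% and above, for all regions tested, all Hox regions and each cluster. The low class takes 84.6% of Hox promoters and 55.5% of all promoters, and 49.9% of Hox tiles and 3.31% of all tiles.

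B and T cells were then compared at the promoters. Only Hoxa6 was called. This was 1 of 39 Hox promoters (2.56%), near the background of 2.92% of all promoters called, or 1.26% called with T cells higher. Hoxa6 is a central Hoxa gene, active in the developing trunk. Its 68 CpGs were covered by 386 to 662 calls per library, and the level in B cells ran from 16.3 to 26.3% with a median of 20.6%. The T cell libraries ran from 34.7 to 47.2% with a median of 38.4%. Every T cell library was above every B cell library. The means were 21.3% ± 3.49 (SD, n = 8) and 38.8% ± 3.91 (SD, n = 8), the pooled difference between B and T cells was -17.6 points, the adjusted p from the model over all promoters was 8.1e-05, and the two-sided exact permutation p was 0.000155, the smallest that 8 against 8 libraries can give. The difference was -19.5 points in BS libraries alone (adjusted p = 0.128), -15.6 in oxBS (0.036), -21.2 in female (0.0475) and -13.6 in male libraries (0.0995). It was uneven over the window. The 22 CpGs just upstream of the start, printed above, stood at only 1.02% in B and 4.54% in T cells. The called tiles of this window, described below, lay in a coding exon downstream of the start and further upstream of it.

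Without the limit on the difference, 3 Hox promoters passed the adjusted p, all higher in T cells, against a background of 10.0% of all promoters and 2.89% with T cells higher. The second was Hoxa5, whose B cell libraries ran from 83.2 to 94.2% with a median of 88.4% and whose T cell libraries ran from 92.1 to 97.2% with a median of 95.8%. Its groups overlapped, with means of 88.5% ± 3.33 (SD, n = 8) and 95.3% ± 1.70 (SD, n = 8), a pooled difference of -7.11 points, an adjusted p of 0.0018 and an exact permutation p of 0.000466. In the narrower window of 500 bp on each side it was 83.9% against 94.4% and was called. The third, Hoxa7, which like Hoxa9 is studied in leukaemia, was low in both cell types, from 0.678 to 3.47% with a median of 2.31% in B cells and from 4.11 to 6.33% with a median of 4.67% in T cells. Its groups did not overlap, the pooled difference was -2.66 points and the adjusted p was 0.00876. Within 500 bp of the start it was 0.796% against 1.59%, a difference of -0.794 points that did not pass (adjusted p = 0.055).

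Hoxc4 and Hoxa9, whose promoter differences were larger in size than that of Hoxa7, did not pass the adjusted p. For Hoxc4 the B cell libraries ran from 50.4 to 69.6% with a median of 56.8%, the T cell libraries from 47.8 to 64.1% with a median of 55.8%, and the difference of 3.36 points had an adjusted p of 0.449. At the gene record start of Hoxa9, a factor of blood progenitors, levels of 3.96 to 8.09% (median 5.71%) in B and 5.52 to 15.1% (median 8.76%) in T cells overlapped, with a difference of -2.78 points and an adjusted p of 0.109. The 500 bp tile that holds this start (chr6:52231001-52231500, 6 CpGs) was called in the tile comparison below. It stood at 17.8% in B and 35.7% in T cells, -17.9 points (adjusted p = 0.0199), with overlapping groups. In the Hoxb and Hoxc clusters no promoter was called, none had an unadjusted p under 0.05, and edgeR called none. In the Hoxd cluster none was called, 1 had an unadjusted p under 0.05, and edgeR called none. Over all 39 genes T cells were higher in 27 (69.2%), with a median difference of -0.593 points, against 32.4% and 0.522 points for all promoters. Hoxd3 and Hoxd4, which share almost the same window, both enter this count. The shift was not particular to the clusters, since the 82 homeobox genes outside them had a median difference of -0.453 points.

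The start of a gene record is not always the start in use. In 9 Hox genes it lay over 1 kb from the APPRIS start. The set of RefSeq starts at hand held 24 starts for 22 of the 39 genes, 6 of them over 1 kb away. That set was incomplete and uneven, since Hoxc4 was its only Hoxc gene, so a share over it does not stand for all Hox genes. Around RefSeq starts 3 of 24 windows were called, all higher in T cells, against 3.44% of all RefSeq windows; around APPRIS starts 2 of 39 were called (Hoxa6 and Hoxa9), against 2.95%. The RefSeq windows were an alternative chosen after the first results had been seen. Here Hoxa7 has its start 3281 bp inside the gene record, in CpG-poorer DNA than the record start, and the 4 CpGs printed above lie next to it. The level ran from 20.9 to 28.5% with a median of 24.7% in B cells, and from 31.6 to 41.3% with a median of 38.4% in T cells. The groups did not overlap, at 25.1% ± 2.82 and 37.6% ± 3.74 (SD, n = 8 each), a pooled difference of -12.9 points with an adjusted p of 3.85e-06 and an exact permutation p of 0.000155. At the APPRIS start of Hoxa7, 4349 bp inside the gene record, the values were 3.78% and 4.32%, with an adjusted p of 0.581.

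Hoxa9 was called at its RefSeq start, which is also its APPRIS start, 3719 bp inside the gene record. Its 52 CpGs ran from 14.6 to 23.5% with a median of 18.1% in B cells and from 25.9 to 35.7% with a median of 32.4% in T cells. Again every T cell library was above every B cell library, with means of 18.3% ± 2.61 and 31.8% ± 3.13 (SD, n = 8 each), a pooled difference of -13.1 points, an adjusted p of 8.5e-05 and an exact permutation p of 0.000155. Hoxa6 differed by -17.0 points at its RefSeq start, 50 bp from the record start. Hoxa10, the next gene, which acts in the uterus and in myeloid cells, was not called at either of its RefSeq starts (7.54% in B and 7.70% in T cells, adjusted p = 0.884, and 11.7% and 11.4%, adjusted p = 0.885). Hoxd4 was at 38.5% in B and 41.9% in T cells around its RefSeq start, 10049 bp from the record start, where overlapping groups gave an adjusted p of 0.597.

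Gene bodies, from the start to the end of the gene record, were low as well. Of 39 bodies 29 (74.4%) had a mean level of at most 20%, where 4.17% of all 21247 bodies tested did, and the medians were 13.5% in B and 14.1% in T cells against 78.5% and 76.9%. All 9 Hoxc bodies were at most 20%, and the single body at 80% or above was that of Hoxa5, at 92.2% in B and 96.1% in T cells. Bodies overlap in 8 pairs among 11 genes, with that of Hoxa3 reaching over Hoxa4, Hoxa5 and Hoxa6, and that of Hoxc5 over 4 other genes.

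The Hoxa6 body was the only one called, 1 of 39 (2.56%) against 2.65% of all bodies, or 0.48% with T cells higher. It ran from 49.9 to 69.2% with a median of 62.7% in B cells, and from 73.8 to 81.6% with a median of 79.0% in T cells. The groups did not overlap, at 61.8% ± 6.00 and 78.2% ± 3.04 (SD, n = 8 each), a pooled difference of -16.7 points with an adjusted p of 4.51e-05 and an exact permutation p of 0.000155. Without its first 1 kb, which the promoter window shares, the difference was -3.10 points (adjusted p = 0.0857), and Hoxa7 was then the 1 body called. In BS libraries alone the Hoxa6 body gave -17.7 points (adjusted p = 0.0715) and in female libraries -18.3 (adjusted p = 0.0527).

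Without the limit 8 Hox bodies passed, all higher in T cells, against 23.8% of all bodies and 3.81% with T cells higher. They were those of Hoxa3, Hoxa5, Hoxa6, Hoxa7, Hoxa9, Hoxa10, Hoxb5 and Hoxc11. The Hoxa7 body ran from 10.8 to 15.0% (median 13.5%) in B and from 19.1 to 24.9% (median 21.3%) in T cells, a difference of -8.00 points with an adjusted p of 2.56e-05. That of Hoxa9 ran from 4.33 to 5.86% (median 5.21%) in B and from 7.43 to 8.91% (median 8.08%) in T cells, a difference of -2.98 points with an adjusted p of 6.61e-06. Neither pair of groups overlapped. The other 5 differed by -3.83 (Hoxa5) to -0.962 points (Hoxc11), with overlapping groups. In the Hoxb, Hoxc and Hoxd clusters no body was called, 1, 3 and none had an unadjusted p under 0.05, and edgeR called none.

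To place these differences, the clusters were cut into 500 bp tiles, of which 757 held enough CpGs and calls. In these, 378 (49.9%) had a mean level of at most 20% and 180 (23.8%) of at least 80%, where 3.31% and 82.2% of the 2252942 tiles of the genome did. Low tiles made up 79.4% of the Hoxc, 62.9% of the Hoxd, 40.5% of the Hoxa and 31.5% of the Hoxb tiles. Taken as whole intervals, the Hoxc cluster stood at 11.7% ± 0.549 in B and 12.5% ± 0.559 in T cells (SD, n = 8 each), and Hoxd at 16.1% ± 1.08 and 15.8% ± 0.516. Hoxa stood at 32.7% ± 0.806 and 35% ± 0.682, and Hoxb at 38.4% ± 1.44 and 38.3% ± 0.295. The 50 kb on each side were higher in each case, from 44.5% (T cells beside Hoxc) to 57.8% (both cell types beside Hoxb). The most methylated tiles were in an intron of Hoxa3 (98.1% in B and 97.4% in T cells), between genes of the Hoxb cluster (94.0% and 98.2%), in shared introns of Hoxc5 and Hoxc6 (86.9% and 78.9%) and in an intron of the non-coding gene Haglr beside Hoxd1 (97.3% and 97.3%).

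**Figure D3:**
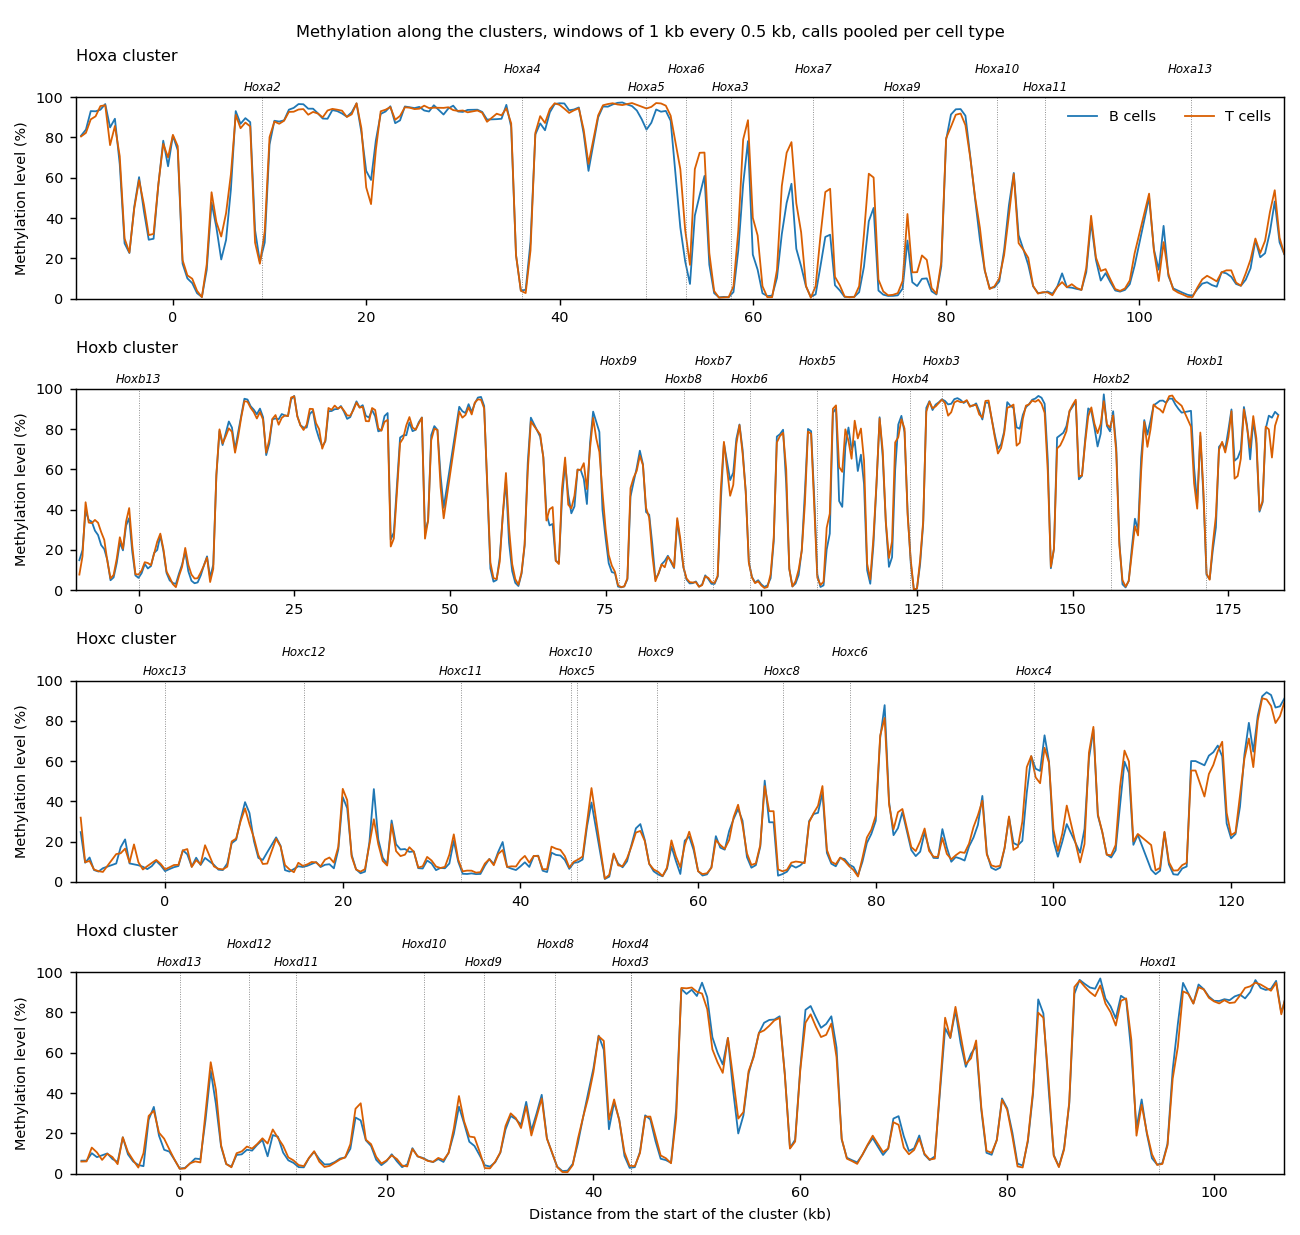
Methylation level (%) in 1 kb windows along each of the 4 clusters against distance from the cluster start (kb), with B cell and T cell libraries pooled per cell type as separate lines. The lines run together over most of each cluster, low over most of Hoxc and the 5′ side of Hoxd, and part within Hoxa, where T cells are higher.

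Of 757 Hox tiles 28 (3.70%) were called between B and T cells, against a background of 5.08% of all tiles. Of these 28, 27 were higher in T cells, as were 42406 of the 114404 called tiles of the genome (1.88% of all tiles tested). With 8 libraries in place of 16 the number of called Hox tiles fell to 3 in BS, 1 in oxBS, 3 in female and 2 in male libraries alone. The shares of all tiles called in these subsets were 0.816, 1.25, 0.811 and 0.82%. With a limit of 20 points 9 of 757 Hox tiles were called, a lower share than the 3.04% of all tiles. By cluster the 28 called tiles were 21 of 173 Hoxa tiles (12.1%), 6 of 270 Hoxb tiles (2.22%) and 1 of 159 Hoxd tiles (0.629%). None of 155 Hoxc tiles was called, where 13 had an unadjusted p under 0.05 (edgeR was not applied to tiles). Tiles with a mean level between 20 and 80% made up 26.3% of Hox tiles and 14.5% of all tiles. Among these, 25 of 199 Hox tiles (12.6%) were called and 24 of 199 were called with T cells higher, against 22.9% and 9.0% of all such tiles. In the Hoxa cluster 18 of 35 such tiles (51.4%) were called, all higher in T cells.

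The called Hoxa tiles lay in a single part of the cluster, with 1 exception. From the 3′ end of Hoxa5 to the upstream start of Hoxa10, 20 of 71 tiles were called, all higher in T cells, and T cells were higher in 54 of the 71, against 43.1% of all tiles and 57.5% of Hox tiles. In the rest of the cluster 1 of 102 tiles was called and T cells were higher in 51. The stretch was delimited after these tiles had been seen, so its contrast with other tiles follows in part from that choice. The contrast is a description with no test. The exception was a tile in exons of Hotairm1, a non-coding gene (chr6:52161001-52161500), at 37.2% in B and 52.7% in T cells (adjusted p = 0.00681), whose groups overlapped. The called tiles formed runs of 4 adjacent tiles at chr6:52218501-52220500 around the RefSeq start of Hoxa7, of 4 at chr6:52222001-52224000 from upstream of the Hoxa7 gene record into the 3′ end of Hoxa9, and of 3 at chr6:52209001-52210500 upstream of Hoxa6.

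**Figure D4:**
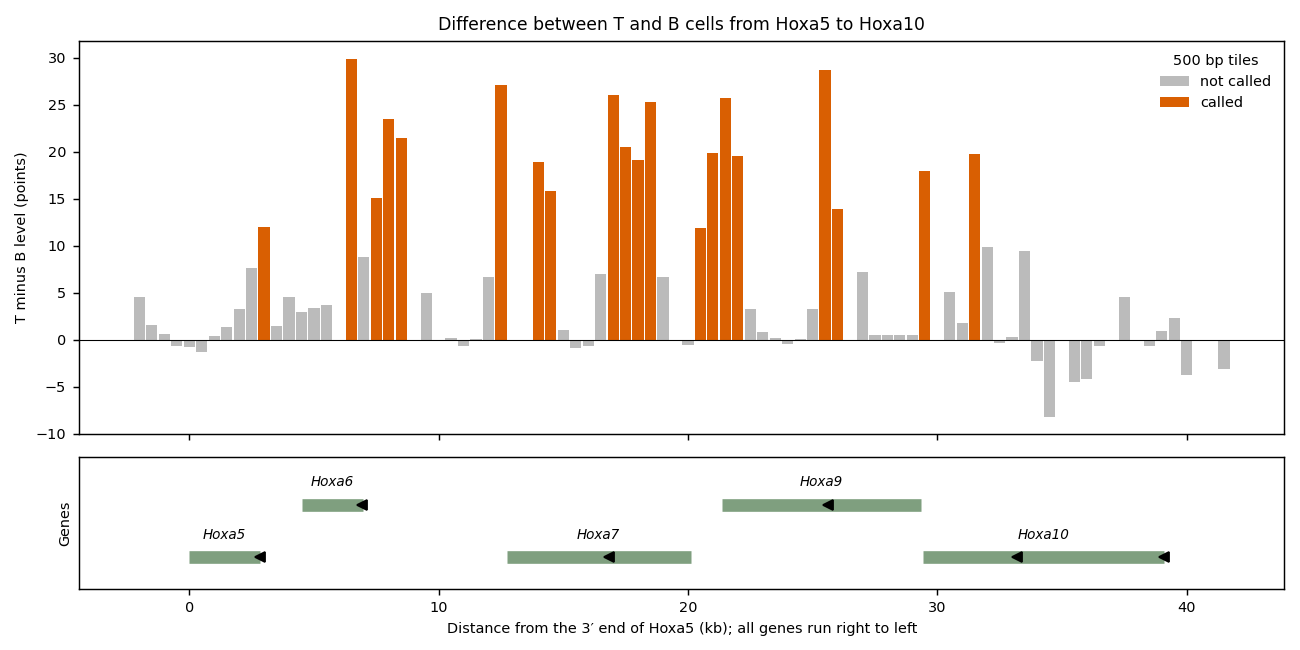
Difference in level between T and B cells (percentage points, T minus B) for each 500 bp tile against distance from the 3′ end of Hoxa5 (kb), with bars for the genes and triangles for RefSeq starts. Called tiles lie above 0 around Hoxa5 to Hoxa10, up to 29.9 points, and do not cover every tile of that stretch.

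The largest difference was in a coding exon of Hoxa6 that lies inside an intron of Hoxa3 (chr6:52208001-52208500, 18 CpGs). B cells ran from 33.3 to 60.9% with a median of 47.0% and T cells from 67.6 to 81.7% with a median of 76.0%. The groups did not overlap, the pooled levels were 45.7% and 75.5%, and the difference of -29.9 points had an adjusted p of 1.74e-05 and an exact permutation p of 0.000155. The next was in an untranslated region of Hoxa9, in the tile that holds its RefSeq start (chr6:52227001-52227500, 13 CpGs). Its B cell libraries ran from 24.0 to 28.9% (median 27.0%) and its T cell libraries from 50.8 to 61.6% (median 56.6%), without overlap, a difference of -28.7 points with an adjusted p of 2.95e-06.

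At the RefSeq start of Hoxa7, the tile chr6:52218501-52219000 holds the Hoxa7 stretch printed above. B cells ran from 22.3 to 32.4% (median 29.7%) and T cells from 45.6 to 62.8% (median 55.6%), again without overlap, a difference of -26.0 points with an adjusted p of 6.22e-06. Upstream of that start but inside the gene record, a tile in an untranslated region (chr6:52220001-52220500) stood at 20.3% in B and 45.6% in T cells, a difference of -25.3 points (adjusted p = 0.000247), and an intron tile (chr6:52219001-52219500) at 68.3% and 88.8%, -20.5 points (adjusted p = 3.06e-05). At the 3′ end of Hoxa7, a tile with only 5 CpGs (chr6:52214001-52214500) stood at 37.8% and 64.9%, -27.1 points (adjusted p = 0.00219, with 7 of 8 T cell libraries covered well enough). None of these 3 pairs of groups overlapped. The tile with 5 CpGs lies mostly past the 3′ end of the Hoxa7 gene record and also overlaps an exon of the antisense gene Hoxaas3. The Hox gene start nearest to it is that of Hoxa3, 914 bp away.

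Of the remaining tiles among the 10 largest, a pair lay at the 3′ side of Hoxa9 and a pair upstream of Hoxa6. In the untranslated region of Hoxa9 (chr6:52223001-52223500) B cells were at 36.1% and T cells at 61.8%, -25.7 points (adjusted p = 0.00125), and in the adjacent tile between the genes (chr6:52222501-52223000) at 25.3% and 45.2%, -19.9 points (adjusted p = 0.000168). Upstream of Hoxa6 the tile chr6:52209501-52210000 stood at 51.2% and 74.7%, -23.5 points (adjusted p = 0.00311), and the next tile, chr6:52210001-52210500, at 40.1% and 61.6%, -21.5 points (adjusted p = 0.000622). Of these 4 tiles only chr6:52209501-52210000 had overlapping groups. The Hoxa5 stretch printed above fell in a called tile too (chr6:52204501-52205000, 38 CpGs), at 81.0% in B and 93.0% in T cells, -12 points with an adjusted p of 0.0282 and overlapping groups.

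The called tiles lay in several kinds of annotation, counted here without a test against the other tiles. Of the 28, 11 had their midpoint within 1 kb of a Hox gene start, 4 overlapped a coding exon, 9 an untranslated region, 1 another exon and 6 an intron of a Hox gene, and 8 overlapped no Hox gene. In 19 both cell types were between 20 and 80%, in 7 B cells were at 20% or less and in 2 T cells were at 80% or more. The groups did not overlap in 19 of the 28, against 66.6% of all called tiles of the genome, and in 21 of all 757 Hox tiles, against 3.71% of all tiles tested.

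Taken as a whole, 39.1 kb with 1385 CpGs (chr6:52201754-52240854), the stretch from Hoxa5 to Hoxa10 ran from 22.9 to 25.9% with a median of 24.3% in B cells and from 28.0 to 30.5% with a median of 29.3% in T cells. Every T cell library was above every B cell library, at 24.4% ± 1.05 against 29.4% ± 0.966 (SD, n = 8 each). The stretch was delimited after the tiles had been seen, so these values are a description with no test. The rest of the Hoxa cluster stood at 40.2% ± 1.17 and 40.1% ± 0.816, with overlapping groups. Within the stretch, BS and oxBS libraries differed by -0.136 points in B and -0.123 points in T cells, and female and male libraries by -0.316 and 0.997 points.

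**Figure D5:**
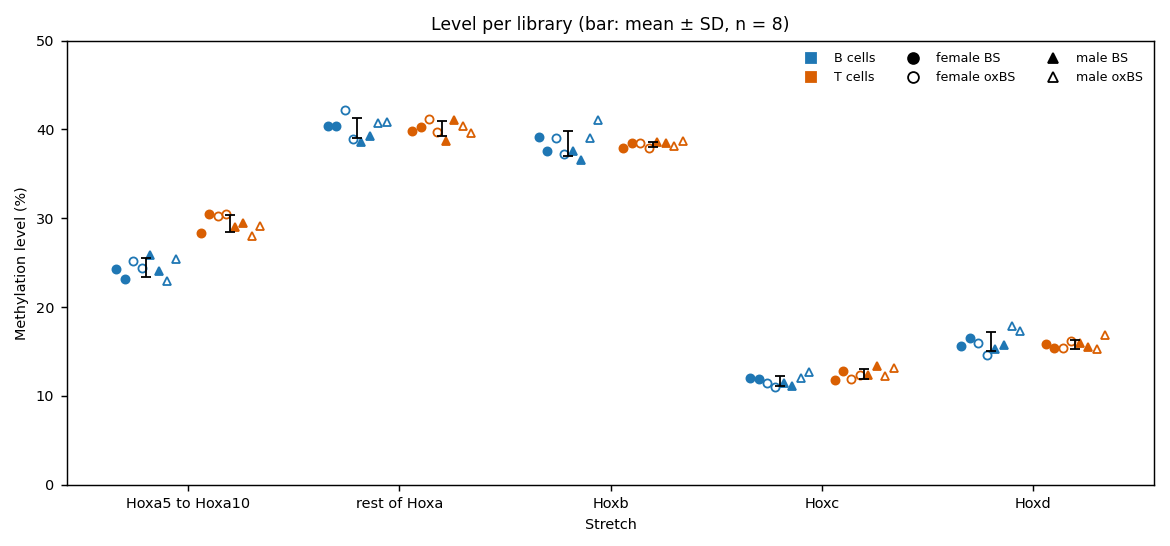
Methylation level (%) of each library over the stretch from Hoxa5 to Hoxa10, the rest of the Hoxa cluster, and the Hoxb, Hoxc and Hoxd clusters, with bars for the mean ± SD of 8 libraries and markers for sex and assay. B cells (22.9 to 25.9%) and T cells (28.0 to 30.5%) separate in the first interval and overlap in the other 4.

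In the Hoxb cluster all 6 called tiles lay from the last exon of Hoxb5 towards Hoxb4, a gene known for the expansion of blood stem cells, in chr11:96305001-96315500, and all were higher in T cells. The largest difference was -19.4 points over only 3 CpGs (chr11:96309501-96310000), from 28.6 to 48.0% with a median of 43.4% in B and from 53.8 to 66.7% with a median of 64.2% in T cells (adjusted p = 0.0303). A tile with 9 CpGs between the genes (chr11:96307001-96307500) was close to it, at 41.1% and 60.3%, -19.3 points with an adjusted p of 0.00144. Groups overlapped in neither. Over the whole 10.5 kb the level was 38.1% ± 1.91 in B and 43.2% ± 2.33 in T cells (SD, n = 8), its groups overlapped, and T cells were higher in 16 of 19 tiles, against 51.9% of all Hoxb tiles. Within it BS and oxBS libraries differed by -0.609 points in B and 3.05 points in T cells, and female and male libraries by -2.90 and 1.24 points, beside the difference of -5.07 points between B and T cells. These values too are a description with no test, since the stretch was chosen after the tiles had been seen. The promoters at both ends, of Hoxb5 (16.7% and 15.3%) and Hoxb4 (14.1% and 15.1%), were not called.

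The only called tile that was higher in B cells was in an untranslated region of Hoxd1, the gene at the 3′ end of the Hoxd cluster (chr2:74764501-74765000, 8 CpGs). B cells ran from 60.0 to 84.0% with a median of 69.0% and T cells from 45.6 to 60.3% with a median of 52.8%. The groups overlapped slightly, the difference was 16.2 points, the adjusted p was 0.0308 and the exact permutation p was 0.000311. The Hoxd1 promoter, at 6.60% and 6.49%, was not called.

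Sex and assay were compared over the same regions, since oxBS against BS bears on 5-hydroxymethylcytosine. Between BS and oxBS no Hox promoter was called, 1 had an unadjusted p under 0.05, and the differences ran from -5.95 (Hoxc4) to 3.23 points with a median of 0.157. No Hox tile was called either, with 28 at an unadjusted p under 0.05. The background was 0.0% of promoters and 0.0% of tiles, with 1228 promoters and 119013 tiles at an unadjusted p under 0.05. Between female and male libraries no Hox promoter was called (1 at an unadjusted p under 0.05, differences from -3.24 to 3.90 points) against 2.21% of all promoters, and no Hox tile (39 at an unadjusted p under 0.05) against 0.0759% of all tiles. These backgrounds include the X chromosome, on which no Hox gene lies, so they are not a like measure for the Hox regions. Shares for the autosomes alone were not counted. The difference between B and T cells did not depend detectably on sex or assay at any Hox promoter, where the smallest adjusted p was 0.224 and 3 promoters in each case had an unadjusted p under 0.05, or at any Hox tile, where 14 and 23 did. edgeR was not applied to sex, assay and their interactions.

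Genes that act with or upon Hox genes were examined at their promoters, where the background was 55.5% at most 20% and 2.92% called. Of 9 Hox cofactors, the Pbx, Meis and Pknox homeodomain partners, 9 were at most 20% and 1 was called, too few genes for a share to be read. The called gene was Pbx2, which ran from 11.2 to 25.0% with a median of 15.5% in B and from 0.0 to 2.25% with a median of 0.596% in T cells, with no overlap and a pooled difference of 15.5 points (adjusted p = 1.51e-06). Of 26 Polycomb, trithorax and Cdx regulators 22 were at most 20% and 1 was called, near the background. Kdm6b, a demethylase that removes the Polycomb mark, ran from 72.0 to 82.3% (median 78.9%) in B and from 38.9 to 65.4% (median 50.6%) in T cells, a difference of 24.6 points (adjusted p = 0.000309).

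Among 82 homeobox genes outside the clusters, 76 were at most 20%, with medians of 5.26% in B and 5.99% in T cells, where those of the Hox promoters were 7.33% and 7.61%. None was called, edgeR called none, and 18 had an unadjusted p under 0.05, as did 5421 of all 20905 promoters. Without the limit on the difference 4 passed the adjusted p, against 10.0% of all promoters, the largest being Nkx2-3 (9.14% in B and 15.1% in T cells, adjusted p = 3.52e-05, no overlap), chosen after its values were seen. Of the 16 protein-coding genes nearest to the clusters 1 was called, again a list too short to set against the 2.92% of all promoters. Skap1, an adaptor of T cell receptor signalling beside Hoxb1, stood at 34.8% in B and 3.05% in T cells, a difference of 31.8 points (adjusted p = 9.9e-08), opposite in sign to the called tiles of Hoxb.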

How the data were processed

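Methylation calls were analysed as deposited for 16 libraries. The authors aligned reads to mm10 with Bismark 0.20.0, and only alignments with a mapping quality of 10 or more contributed calls. The submitters' processing notes also name Trim Galore 0.6.0 and SAMtools 1.3.1. The deposited values are whole-number counts of unmethylated and methylated calls per CpG, with both strands combined. CpGs without a call are not listed. Depth is set by 5.78 to 7.99 calls per CpG, so single CpGs were not tested.

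Calls were summed per library over promoters (1 kb on each side of the gene start), gene bodies and 500 bp tiles, keeping libraries with at least 20 calls and regions with at least 3 CpGs and 5 libraries per cell type (3 where 4 libraries were used). Each region was fitted with a quasi-binomial logistic model (terms for cell type, sex and assay, dispersion not below 1) and an F test of the deviance, with Benjamini-Hochberg adjustment over all regions of a kind. Two-sided exact permutation tests were run on mean library levels. Promoters and bodies were also tested with edgeR 4.0.16 (R 4.3.3). Other steps used Python 3.11.15, NumPy 2.4.6, SciPy 1.17.1, numba 0.67.0 and pandas 2.3.3, and the model was checked on simulated counts. The numbers of the libraries differ between all groups and pair none of them. Every pair of libraries of a cell type differed beyond counting error (chi-square per promoter of 2.38 to 6.02 over 28 pairs in each cell type). Pairs of the same sex gave 2.38 to 3.56 and pairs of opposite sex 4.57 to 6.02. The measure takes calls as independent, which calls on the same read are not, so it cannot tell whether 2 libraries share DNA.

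Described in full were called promoters and bodies, the highest and lowest promoter of each cluster, the 5 largest promoter differences, the 10 largest called tiles, the most methylated tile of each cluster, and called genes of the other lists. The Hoxd1 tile, the Hoxb tiles, the tile at the Hoxa9 record start, the stretches and further genes were chosen after their values were seen. A Hox gene and a marker enter the counts but are not reported here by name. The members of the Hox set were defined by symbol alone, but that set and the other lists were chosen with earlier results of these data known. Alternatives covered subsets of libraries, limits, windows, starts, tile sizes and tests.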

Additional observations from a re-analysis of the deposited data

Results flagged for a closer look

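Among 212 groups of up to 8 libraries over the Hox promoters, bodies and called tiles, 14 held a library set apart from the others by more than Dixon's 95% limit. Chance sets apart about 1 group in 20, but some of these regions share DNA and are not separate groups.

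At promoters, Hoxa4 was at 6.85% in T cell library 6, with the others from 12.2 to 16.1%. Hoxa6 was at 47.2% in T cell library 15, with the others from 34.7 to 40%, so this library lay further from the B cells than the rest. Hoxa9 was at 15.1% in T cell library 13 (others 5.52 to 9.57%) and Hoxb4 at 23.0% in T cell library 7 (others 11.5 to 16.9%). Hoxc11 was at 11% in B cell library 2 (others 4.2 to 6.91%). In the Hoxd cluster, Hoxd10 was at 4.83% in T cell library 13 (others 7.09 to 8.24%) and Hoxd12 at 14.7% in T cell library 16 (others 11.1 to 12.5%). Among gene bodies, that of Hoxc11 was at 6.65% in T cell library 15 (others 5.02 to 5.72%).

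Among called tiles, that at chr6:52209001-52209500 upstream of Hoxa6 was at 42.9% in T cell library 15 (others 29.3 to 35.1%). The next tile, chr6:52209501-52210000, was at 91.7% in T cell library 5 (others 68.7 to 76.4%). The tile chr6:52218501-52219000 at the RefSeq start of Hoxa7 was at 22.3% in B cell library 3 (others 28.8 to 32.4%), and chr6:52222501-52223000 at 34.8% in B cell library 2 (others 20.4 to 26.5%). In an exon of Hoxa10 (chr6:52233001-52233500) B cell library 1 was at 12.3% (others 17.5 to 21.4%), and in the Hoxb tile chr11:96309501-96310000 B cell library 3 was at 28.6% (others 39.1 to 48.0%).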

How the results depend on the processing

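Of 39 Hox promoters 1 was called, and 3 without the limit on the difference, 0 with a limit of 20 points, and 0 in BS or in male libraries alone. The count was 2 within 500 bp of the start (Hoxa5 and Hoxa6) and 2 at APPRIS starts. At the RefSeq starts at hand, chosen after seeing the data, 3 of 24 windows were called. Of 39 bodies 1 was called, and 8 without the limit, 0 with a limit of 20 points, and 0 in BS or in female libraries alone. Of 757 tiles 28 were called, and 9 with a limit of 20 points, 3 in BS, 1 in oxBS, 3 in female and 2 in male libraries alone, with 8 libraries in place of 16. Leaving out each library in turn gave 1 promoter, 1 body and 23 to 30 tiles, and differences of -18.2 to -16.7 points for the Hoxa6 promoter and -17.6 to -15.3 for its body. In all, 95 alternative counts stayed within 1.5 times of their main count. These include the refits without 1 library just given and those for sex and assay, so they are not 95 separate checks. The differences of the Hoxa5, Hoxa6 and Hoxa7 promoters and of the Hoxa6 and Hoxa7 bodies were reversed under none of the alternatives. Uncalled differences did change sign with the start used, at APPRIS starts from 3.36 to -1.98 points for Hoxc4, from -1.07 to 0.913 for Hoxd11, from 0.928 to -0.373 for Hoxc6 and from -0.153 to 0.222 for Hoxa10. The promoter differences of Hoxa5 and Hoxa7 kept their direction in BS, oxBS, female and male libraries alone but passed the adjusted p in none of them, and that of Hoxa7 was -0.794 points within 500 bp of the start. For the Hoxa6 body without its first 1 kb the difference was -3.10 points. No paired analysis was possible because the library numbers are not shared between groups. With 20 calls a library leaves a wide range for the level of a tile, and BS and oxBS libraries that share DNA would not be independent.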

Other observations

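The clusters also hold non-coding genes, whose starts (1 kb on each side) were measured with no test, 43 in all. Hoxb5os, an antisense gene in the Hoxb stretch with called tiles, was at 57.2% ± 2.14 in B and 69.9% ± 4.68 in T cells (SD over 8 libraries each), and no libraries overlapped. Its window holds the called tiles at chr11:96306501-96307500, so this is not a separate observation. The groups overlapped at every other start of the 43. The share of non-coding starts without overlap over the genome was not counted. In the Hoxa cluster, Hoxaas2 stood at 57.9% ± 4.14 and 65.9% ± 5.66, while Hoxaas3, an antisense gene whose transcripts reach over Hoxa3 to Hoxa7, went the other way at 67.3% ± 6.24 in B and 58.6% ± 6.36 in T cells. In both cases the libraries overlapped.

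The microRNA genes of the clusters, of which only some are given here, stood at unlike levels. Mir196b, inside the gene record of Hoxa9, was at 1.55% ± 0.65 in B and 2.17% ± 0.673 in T cells. Mir10a in the Hoxb cluster was at 57.2% ± 5.88 and 54.3% ± 4.76, and Mir10b in the Hoxd cluster at 74.6% ± 3.95 and 74.0% ± 3.44. Hotair, a non-coding gene of the Hoxc cluster, was at 17.8% ± 3.69 and 14.4% ± 2.26. Libraries of the 2 cell types overlapped in each of these.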
